A study of Danio rerio with 4 samples.

Results

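The genes mpx, lyz, mmp9 and mmp13a encode secreted or granule enzymes of zebrafish myeloid cells. They were taken as every probe that the array annotation, updated through RefSeq symbols, gives to one of these 4 names. This found 4 probes among 20406, 1 for each gene, and 4 genes among 9665 named ones. The genes were chosen by their ratios of NHA9 to lGl on these same arrays, so those ratios are given as a description and carry no test of their own.

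Neutrophils are the granulocytes that first reach a wound or an infection, and they carry granules filled with enzymes. Myeloperoxidase, from mpx, makes hypochlorous acid out of hydrogen peroxide, and lysozyme, from lyz, cuts the bacterial cell wall. Both genes are widely used in zebrafish embryos to mark neutrophils, and lyz is also used for early myeloid cells in general. The matrix metalloproteinases of mmp9 (a gelatinase) and mmp13a (a collagenase) are zinc enzymes that cleave extracellular matrix. Neither belongs to myeloid cells alone, since epithelial and other tissues also make such enzymes when injured or remodelling.

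RNA came from whole zebrafish embryos at 28 hours post-fertilization. NHA9 embryos were the offspring of a Tg(spi1::lox-eGFP-lox::NHA9) parent and a Tg(hsp70::Cre) parent, in which heat-induced Cre removes the eGFP cassette and frees NUP98-HOXA9, a human leukaemia fusion gene. lGl embryos were the offspring of the same floxed line and wild-type AB fish and kept the cassette. Both crosses were heated to 37 °C for 1 hour at 24 hours of age and then kept at 28 °C. RNA was taken 4 hours after the heat shock. The spi1 promoter is active in myeloid cells, so the fusion gene is driven in the lineage from which neutrophils arise. Cre and the AB parent differ between the crosses along with the fusion gene, and these cannot be told apart. There were 2 extracts of each kind, and the labels give neither the number of embryos nor of clutches in an extract.

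Each of the 2 extract pairs was hybridised to 2 arrays, a forward one that carried NHA9 in Cy5 and a dye swap that carried it in Cy3, and counted as 1 replicate. The values are the deposited log ratios of the 2 channels, read as log2. NHA9 over lGl is the likely direction, from the titles and dyes of the forward arrays, and is not stated with the values. Over all probes an array and its swap ran the same way (r = 0.747 in replicate 1, 0.465 in replicate 2, over probes, which are not independent). The ratios of the 4 columns were read as already turned to one contrast. These r values alone do not settle that reading, since a bias of dyes or probes could also make them positive. Over probes, the largest mean of the 4 columns was 7.61 in size. With the swap columns turned by their dyes, the largest mean was 1.82 in size. The largest ratios in size thus kept their sign between forward and swap arrays. A reading applies to whole columns, and so to all genes alike, and it was not tested on the 4 enzyme genes. Between replicates, r was 0.449 for the forward arrays and 0.387 for the swaps. It was only 0.112 and 0.109 for arrays of unlike orientation, so the arrays also ran together by orientation. By rank (Spearman) the 2 replicates had rho of 0.387 and 0.293 for like orientation, and −0.012 and 0.009 for unlike. A reading that turns the swap columns by their dyes is given beside the first values below. Replicate 2 spread more widely, with an SD over probes of 0.72 and 0.63 on its arrays against 0.54 and 0.51 on those of replicate 1. Ratios do not show how strongly a gene was expressed, and spot intensities were not used here.

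All 16 values of these genes (4 genes on 4 arrays) were above 0, and the gene means lay between 0.92 and 1.18 on the log2 scale. That is between 1.9-fold and 2.26-fold if the log base is 2. Among 13261 items, which are genes and unnamed probes, 19.4% were above 0 on all 4 arrays, and the median ratio was 0.02. The 4 genes were chosen by these ratios, so their place above the other items follows from the choice. In whole embryos, more cells of a type and more RNA in each cell cannot be told apart. With the swap columns turned by their dyes the means were −0.06 for mpx, 0.67 for lyz, 0.01 for mmp9 and −0.10 for mmp13a, so the levels described here hold for the single-contrast reading.

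**Figure D1:**
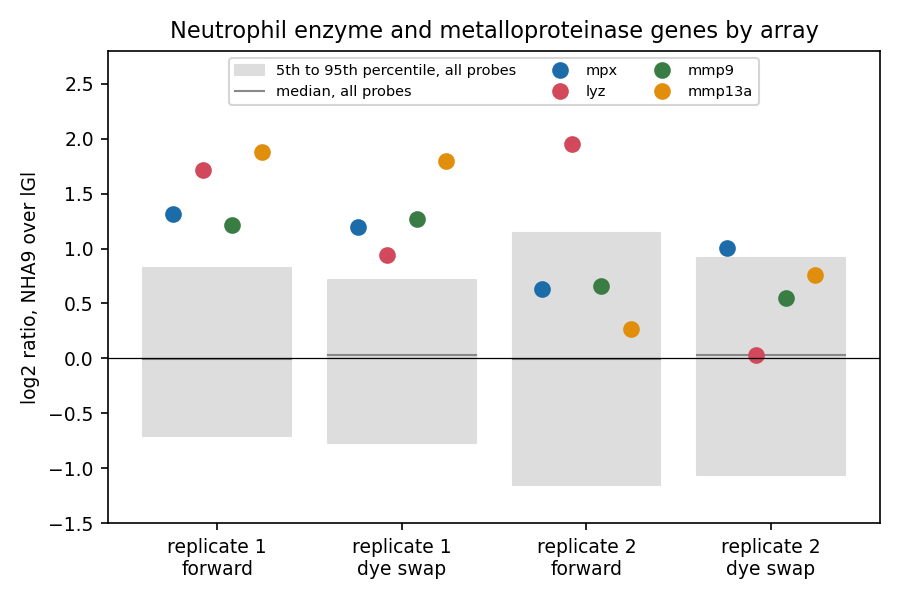
Log2 ratio of NHA9 over lGl (vertical axis) for mpx, lyz, mmp9 and mmp13a on each of the 4 arrays, 1 point for each probe, with grey boxes for the 5th to 95th percentile of all probes and a grey line for their median. In replicate 1 all 8 points lie above the box, and in replicate 2 only lyz on the forward array (1.95) and mpx on the dye swap (1.00) do. The genes were chosen by these ratios.

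The myeloperoxidase gene mpx had log2 ratios of 1.31 and 1.2 on the forward and swap arrays of replicate 1, and of 0.63 and 1.00 on those of replicate 2. Its mean was 1.04 ± 0.31 (SD, n = 2), with 1.25 in replicate 1 and 0.82 in replicate 2. No array was near 0, and mpx had the highest lowest value of the 4 genes. Of all items, 213 others had a lowest array value as high as its 0.63, and 217 (1.64%) had a higher mean. These ranks follow from the choice of mpx by its ratios.

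The lysozyme gene lyz had the least even values. Its ratios were 1.71 on the forward array and 0.94 on the dye swap of replicate 1, then 1.95 and 0.03 in replicate 2. The forward array of replicate 2 gave the highest of all 16 values and its dye swap the lowest, from the same pair of extracts. The lyz mean was 1.16 ± 0.24 (SD, n = 2), or 1.32 in replicate 1 and 0.99 in replicate 2. The small SD of lyz between replicates thus sits on a range of 1.92 between single arrays.

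The gelatinase gene mmp9 had ratios of 1.21 and 1.27 on the 2 arrays of replicate 1, and of 0.66 and 0.55 on those of replicate 2. Forward and swap arrays lay close together for mmp9, and the replicates lay apart without overlap. The mmp9 mean was 0.92 ± 0.45 (SD, n = 2), the lowest of the 4 genes.

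The collagenase gene mmp13a had the highest mean and the largest gap between replicates. Its ratios were 1.88 and 1.80 on the arrays of replicate 1, and 0.26 and 0.76 on those of replicate 2. Both arrays of replicate 1 lay above both of replicate 2. The mmp13a mean of 1.18 ± 0.94 (SD, n = 2) was made of 1.84 in replicate 1 and 0.51 in replicate 2.

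The means of the 4 genes were closer to each other than the 2 replicates of any of them, so the order mmp13a, lyz, mpx, mmp9 is within their spread. Measured against the other probes of the same array, replicate 1 held all 8 of their values above the 95th percentile and replicate 2 held 2 of 8. High places among the probes follow in part from the choice of the genes by these ratios. On the forward array of replicate 1, mmp13a was exceeded by 0.83% of probes, lyz by 1%, mpx by 1.75% and mmp9 by 2.05%. On the forward array of replicate 2 these shares were 34.85% for mmp13a, 0.73% for lyz, 17.42% for mpx and 16.47% for mmp9. On its dye swap lyz was exceeded by 49.75% of probes, close to the middle of the array, while mpx was exceeded by 3.36%.

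Over all items, limma with Benjamini-Hochberg adjustment called 271 of 13261 (2.04%) higher in NHA9 embryos at an adjusted p of 0.05, and 105 (0.792%) lower. mpx, lyz and mmp13a were among the higher ones and mmp9 was not. The choice of these genes already rests on these ratios, so this is a description and no test of them. The fit gave all items one standard error, so the call followed from the mean alone. The smallest ratio called was 0.96 in size, which lies between the means of mmp9 (0.92) and mpx (1.04). Whether mpx and mmp9 differed was not tested. None of the 4 genes was called when the arrays were scaled to a common spread, or in the fit of all 4 arrays with a replicate block.

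**Figure D2:**
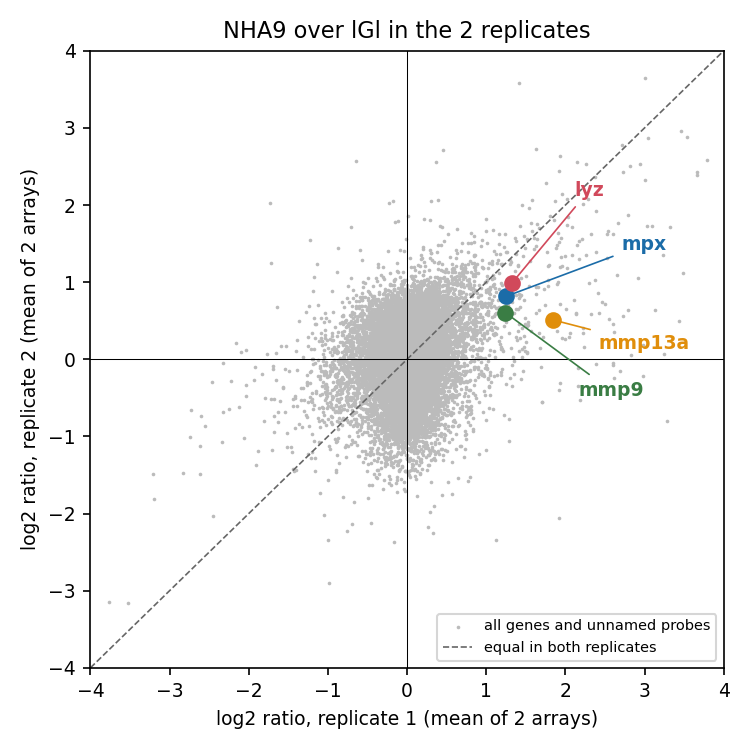
Mean log2 ratio of NHA9 over lGl in replicate 1 (horizontal) and replicate 2 (vertical), each over 2 arrays, with 1 grey point for each gene or unnamed probe and coloured points for mpx, lyz, mmp9 and mmp13a. All 4 genes lie to the right of the dashed line of equality, mmp13a farthest (1.84 and 0.51), and 9 items lie outside the axes.

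Differences between replicates and between dye orientations are other contrasts of the same 16 values on which the genes were chosen. They are orthogonal to the mean ratio in the fit, but independent of it only if all arrays vary alike, which their spread over probes does not show. In the reading by dye, the orientation difference is itself the contrast of NHA9 with lGl. These limma fits used all 4 arrays, with terms for orientation and replicate and adjustment over all 13261 items. All 4 genes had a higher mean in replicate 1. Between arrays of different replicates, 43.4% of items differed past the threshold, 21.5% with replicate 1 higher, so such a difference is common on these arrays. The collagenase gene mmp13a was higher in replicate 1 by 1.33 ± 0.19 (SE; limma adjusted p = 3.15e-05). The gelatinase gene mmp9 was higher there by 0.64 ± 0.17 (SE; limma adjusted p = 0.00696). For mpx the difference was 0.44 ± 0.18 (SE; limma adjusted p = 0.0596) and for lyz 0.34 ± 0.22 (SE; limma adjusted p = 0.221), neither past the threshold. The mpx difference passed after scaling to a common spread and after quantile normalization, and that of lyz after scaling. The error in these tests is that between arrays, since the 2 arrays of a replicate share their extracts.

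Between orientations, 15% of items differed, 9.85% with the forward arrays higher. Among the 4 genes only lyz passed, with forward arrays higher by 1.34 ± 0.22 (SE; limma adjusted p = 0.000351). Its means were 1.83 on forward arrays and 0.48 on dye swaps. The differences were −0.13 ± 0.18 for mpx, 0.03 ± 0.17 for mmp9 and −0.21 ± 0.19 for mmp13a (SE), none past the threshold (limma adjusted p = 0.647, 0.928 and 0.456). Whether lyz differed from the other genes in this respect was not tested. The limits given for the replicate differences hold here too, since the genes were chosen by these values and the arrays did not vary alike.

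**Figure D3:**
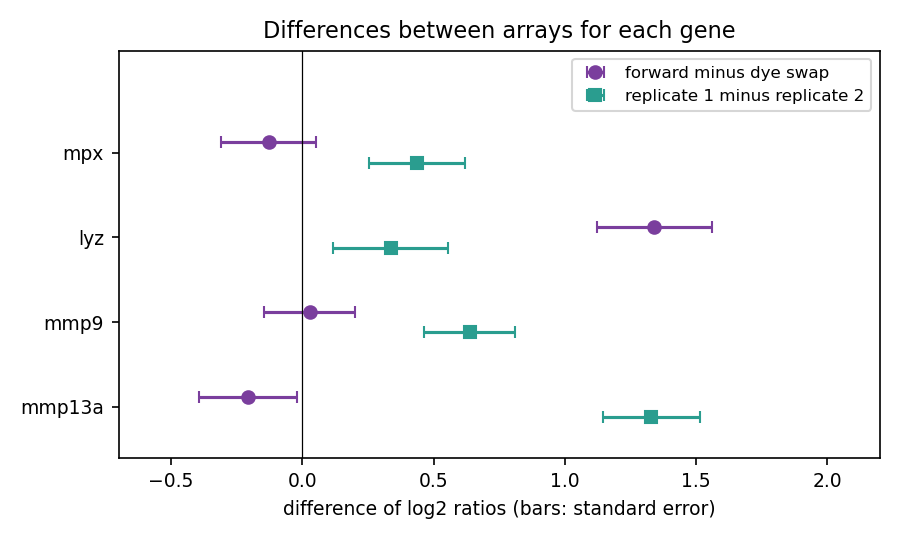
Difference of log2 ratios (horizontal axis, with standard errors) between forward and dye-swap arrays (circles) and between replicates 1 and 2 (squares) for each of the 4 genes, from the limma fit on 4 arrays. The largest differences were those of lyz by orientation (1.34) and of mmp13a (1.33) and mmp9 (0.64) by replicate. They come from the same values by which the genes were chosen.

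Other measured genes of neutrophils had lower mean ratios than the 4 enzyme genes. The 4 were chosen by their ratios on these arrays, so this order follows from the choice and was not tested. Of 24 listed genes for granulocyte receptors, granule proteins, the phagocyte oxidase and C/EBP factors, 12 were measured. In limma 0 of them passed (2.04% of all items were called higher, 0.792% lower). An unadjusted p under 0.05 was found for 1 (10.4% of all items). The median of the 12 was 0.03 (0.22 in replicate 1 and −0.19 in replicate 2), beside 0.02 for all items. Of the 12, 7 had a mean above 0 (52.5% of all items). All 4 arrays were above 0 for 3 of them (19.4% of all items). The granule protease gene npsn (nephrosin), measured by 5 probes, was at 0.63 and 0.39 in replicate 1 and at 0.53 and 0.10 in replicate 2 (mean 0.41, limma adjusted p = 0.744). cebp1, a C/EBP transcription factor gene of zebrafish myeloid cells, had ratios of −1.32 and −0.71 in replicate 1, and of −1.002 and 0.20 in replicate 2. The cebp1 mean was −0.71 ± 0.44 (SD, n = 2; limma adjusted p = 0.28). Its forward arrays lay below its dye swaps by 0.91 (limma adjusted p = 0.00291), opposite in sign to lyz.

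The oxidase gene cybb, which encodes the catalytic subunit that supplies superoxide to phagocytes, averaged 0.26, and the protease gene adam8a 0.30. The C/EBP gene cebpd averaged −0.20, above 0 in replicate 1 (0.07) and below it in replicate 2 (−0.48). The receptor genes csf3r, cxcr1 and cxcr2 and the oxidase gene ncf1 had no named probe here, so these neutrophil markers were not analysed. Of the genes set as neutrophil markers, only mpx, lyz and npsn were measured. The list median thus rests mostly on genes not set as such markers.

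Macrophage and pan-leukocyte genes stood above 0 together with the 4 enzymes. All 17 measured of 26 listed had a positive mean (52.5% of all items did) and 16 of them were positive on all 4 arrays (19.4% of all items). This list, like the others here, was set with earlier results of these data known, so these shares are a description. The list median was 0.56 (0.65 in replicate 1, 0.52 in replicate 2). Means ranged from 0.06 to 1.16. In limma 2 passed as higher (2.04% of all items did) and 8 had an unadjusted p under 0.05 (10.4% of all items). The part these cells have in the ratios of mpx, lyz, mmp9 and mmp13a was not tested. mpeg1.1, which encodes a pore-forming protein of macrophages, rose with ratios of 1.23, 1.16, 1.17 and 0.76 over the forward and swap arrays of replicates 1 and 2. Its mean of 1.08 ± 0.17 (SD, n = 2; limma adjusted p = 0.0158) was close to that of mpx. The amino acid transporter gene slc7a7 rose by 1.16 ± 0.75 (SD, n = 2; limma adjusted p = 0.0064). Replicate 2 was higher for slc7a7, at 1.69 against 0.63. Both calls were lost after scaling (limma adjusted p = 0.0763 for mpeg1.1, 0.0864 for slc7a7) and in the fit with a replicate block (0.0761 and 0.303, in that order). With dye-swap arrays alone slc7a7 averaged 0.71 and did not pass. In the reading by dye the list median was 0.01, with mpeg1.1 at 0.12 and slc7a7 at 0.45.

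Among macrophage markers, the transcription factor gene irf8 averaged 0.69 and the matrix-binding gene mfap4.1 0.18, while csf1ra and marco had no named probe. The pan-leukocyte genes were at 0.56 for lcp1 (L-plastin), 0.54 for coro1a (coronin) and 0.66 for ptprc (the CD45 phosphatase), none past the threshold. spi1b and spi1a, whose family gives the transgene its promoter, were at 0.46 and 0.47. The 4 enzyme genes, chosen by their ratios, lay above the genes named in this paragraph, an order that follows from the choice and was not tested. They did not lay above all macrophage genes. The means of mpeg1.1 (1.08) and slc7a7 (1.16) were higher than those of mpx (1.04) and mmp9 (0.92).

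The metalloproteinase family beyond mmp9 and mmp13a showed smaller ratios, an order that follows from the choice of mmp9 and mmp13a by their ratios. Of 42 listed genes for metalloproteinases, related ADAM proteases and TIMP inhibitors, 11 were measured. In limma 0 of the 11 passed (2.04% of all items were called higher, 0.792% lower). An unadjusted p under 0.05 was found for 1 (10.4% of all items). The list median of 0.31 came from 0.39 in replicate 1 and 0.22 in replicate 2, and was −0.01 in the reading by dye. In all, 8 of the 11 were above 0 in the mean (52.5% of all items), 7 of them on all 4 arrays (19.4% of all items). mmp2, the other gelatinase gene, was at 0.22 and 0.65 in replicate 1 and at 0.56 and 1.08 in replicate 2. Its mean of 0.63 ± 0.27 (SD, n = 2; limma adjusted p = 0.426) was higher in replicate 2, unlike that of mmp9. The membrane-bound mmp14b, whose product can activate pro-gelatinase A, averaged 0.46 and adam17a, a sheddase gene, 0.52. The inhibitor gene timp2a averaged 0.37 and its paralogue timp2b −0.33. timp2a was above 0 on all 4 arrays and timp2b below 0 on all 4.

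Peroxidase, lysozyme and oxidase genes other than mpx and lyz centred on 0. Of 25 listed genes, 16 were measured, and 8 of 16 were above 0 (52.5% of all items). In limma 0 of the 16 passed (2.04% of all items were called higher, 0.792% lower). An unadjusted p under 0.05 was found for 1 (10.4% of all items). The median was 0.01, or 0.08 and −0.34 by replicate. They ranged from −0.65 to 0.57, and 3 of them (cyba, cybb and ncf4) also belong to the neutrophil list, as adam8a belongs to both that list and the metalloproteinase list.

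Genes of AP-1, NF-κB and inflammatory signalling, which are known to drive mmp9 and mmp13 genes in mammals, had 1 call. The call was a higher one, as for 2.04% of all items. Of 46 listed genes 18 were measured, 15 had a positive mean (52.5% of all items) and 2 an unadjusted p under 0.05 (10.4% of all items). The median was 0.26 (0.18 in replicate 1, 0.21 in replicate 2), and −0.05 in the reading by dye. fosab, the c-Fos gene and part of AP-1, rose with ratios of 1.07 and 0.93 in replicate 1 and of 1.82 and 1.51 in replicate 2. Its mean was 1.33 ± 0.47 (SD, n = 2; limma adjusted p = 0.000785). Replicate 2 was the higher one for fosab and replicate 1 for mmp9 and mmp13a. The part of fosab in the ratios of mmp9 and mmp13a was not tested. In the reading by dye fosab was at 0.11 and did not pass (limma adjusted p = 0.383). In the single-contrast reading its call held after scaling (limma adjusted p = 0.0249). It also held, just under the threshold, in the fit with a replicate block (limma adjusted p = 0.0496). The NF-κB subunit gene relb averaged 0.74 and the AP-1 gene junba 0.47, neither past the threshold. The NF-κB inhibitor gene nfkbiaa averaged 0.38, and the haem oxygenase gene hmox1a −0.37. The cytokine genes il1b, tnfa and cxcl8a had no named probe here.

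**Figure D4:**
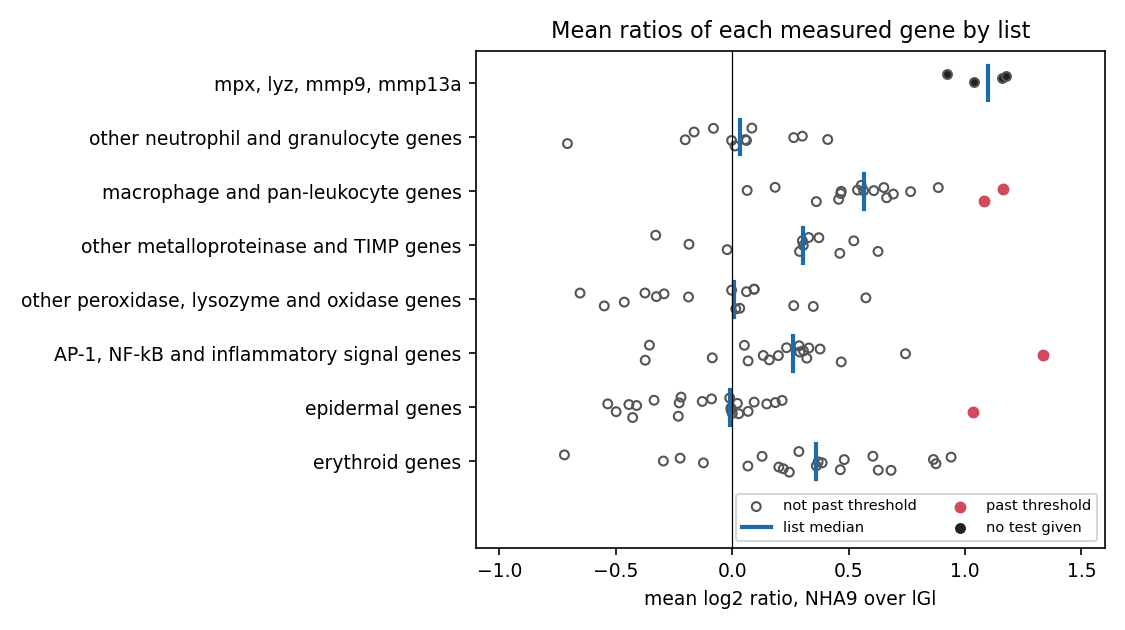
Mean log2 ratio of NHA9 over lGl (horizontal axis) of each measured gene in 7 lists and of mpx, lyz, mmp9 and mmp13a (top, black), with blue bars for list medians and red for genes past the limma threshold. The black points lie between 0.92 and 1.18, against medians of 0.03 for other neutrophil genes and 0.56 for macrophage and pan-leukocyte genes. Most genes behind the 0.03 were not set as neutrophil markers, and npsn, which was, had a mean of 0.41. The genes of the black points were chosen by these ratios, so their place above the list medians follows from that choice.

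Epidermal and erythroid lists describe other tissues of the whole embryo. Of 25 epidermal genes 23 were measured, with a median of −0.01 (−0.28 and 0.15 by replicate). In limma 1 was called, as higher (2.04% of all items were). The same 1 had an unadjusted p under 0.05 (10.4% of all items did). That gene, the E-cadherin gene cdh1, rose by 1.03 ± 0.24 (SD, n = 2; limma adjusted p = 0.0257), while its call was lost after scaling (limma adjusted p = 0.0798), with forward arrays alone (0.166) and with a replicate block (0.138). Of 27 erythroid genes 21 were measured, and 17 had positive means (52.5% of all items). In limma 0 of the 21 passed (2.04% of all items were called higher, 0.792% lower). An unadjusted p under 0.05 was found for 7 (10.4% of all items). The median of the erythroid genes was 0.36, or 0.54 and 0.08 by replicate, and 0.08 in the reading by dye. The erythroid list had its higher median in replicate 1, as had the neutrophil, macrophage, metalloproteinase and peroxidase lists. The epidermal and AP-1 lists had theirs in replicate 2. All 4 enzyme genes were higher in replicate 1, and the part of the erythroid genes in their ratios was not tested.

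The genes most like each enzyme gene were found by the Euclidean distance between log2 ratios over the 4 arrays, among all named genes. Nearest to mpx were iars1, an isoleucyl-tRNA synthetase gene, at a distance of 0.19, the sphingolipid synthesis gene kdsr at 0.32 and the mitochondrial creatine kinase gene ckmt2b at 0.33. Nearest to mmp9 were adh5l at 0.15, renbp at 0.19 and the red cell membrane skeleton gene epb41b at 0.23. Nearest to mmp13a were hbl4, a hexose-binding lectin gene, at 0.27, the polymerase III factor gene brf2 at 0.31 and crip1 at 0.31. Nearest to lyz were the glycerol kinase gene gk5 at 0.37, the slow-muscle troponin gene tnnt1 at 0.48 and the phosphorylase kinase gene phkg2 at 0.50. These 3 were picked by nearness to lyz, so their low dye swaps in replicate 2 (−0.10, 0.23 and 0.17) follow from that choice.

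The 4 enzyme genes were not one another's nearest neighbours. mpx and mmp9 were the closest pair, at a distance of 0.47, with 18 named genes nearer to mpx than mmp9 was. Seen from mmp9, 26 named genes lay nearer than mpx. The distance of lyz was 1.70 from mpx, 1.51 from mmp9 and 2.03 from mmp13a. For the pair of mpx and lyz, 1625 named genes lay nearer to mpx than lyz did. Seen from lyz, 303 lay nearer than mpx. These counts of nearer genes are all among 9665 named genes. The 4 were chosen by their ratios, so their nearness to one another follows in part from the choice. mmp9 and mmp13a were 0.96 apart. These distances rest on 4 arrays from 2 extract pairs and 1 probe for each enzyme gene.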

How the data were processed

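RNA of NHA9 and lGl embryos was compared on 4 2-colour arrays, 2 extract pairs in 2 dye orientations. Each replicate number pairs 1 extract of each kind on the same arrays, per the labels, so every ratio is within a pair. The deposited values are log ratios of the channels, taken as log2 because they reach from −7.98 to 6.75. For base, centring, direction, scanner, background correction and normalization the processing was not given in the sources used here. Column medians were −0.01 (both forward arrays) and 0.03 (both swaps). Arrays were not filtered, and no value was missing.

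Probes were named through the platform annotation, with symbols updated by accession, symbol or synonym through RefSeq's table for GRCz12tu (16810 of 20406 named). The mmp13a probe matched by symbol, the other 3 by accession. Probes of a gene were averaged, giving 13261 items. An array and its swap were averaged to 1 replicate, and the mean of 2 was tested with limma 3.58.1 in R 4.3.3 (lmFit, eBayes, Benjamini-Hochberg, threshold 0.05). The shared standard error was 0.30. A second limma fit on 4 arrays had orientation and replicate terms. The fits were tested on simulated data drawn with equal spread on all arrays, which these arrays did not have. Error rates on these arrays were therefore not tested. Signal over background is unknown, and the number of extract pairs limits the precision. The members, lists and tests were chosen with earlier results of these data known. Named were the 4 members, list genes past the threshold, the 5 largest ratios of 3 lists and the 3 nearest genes of each member. Genes named beyond that (csf3r, irf8, spi1b and other markers) are defining markers, or the genes of the transgene's promoter, named whatever their values.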

Additional observations from a re-analysis of the deposited data

Results flagged for a closer look

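The ratio of lyz differed between dye orientations, with forward arrays higher by 1.34 (limma adjusted p = 0.000351). The difference was tested on the values by which lyz was chosen. It is independent of the mean ratio only if all arrays vary alike, and in the reading by dye it is itself the contrast of NHA9 with lGl. Of the 43 measured genes named here, 7 passed this test, lyz included, beside 15% of all items. Among the list genes named here, cebp1 passed with forward arrays lower (a difference of −0.91, limma adjusted p = 0.00291). slc7a7 (0.90, limma adjusted p = 0.00448) and the oxidase gene ncf4 (0.87, limma adjusted p = 0.009) passed with forward arrays higher. The other 3 were the neighbours of lyz, gk5 (1.52), tnnt1 (1.602) and phkg2 (1.19), which were picked for a pattern over the arrays like that of lyz. The 7 thus include genes picked by pattern. Over whole lists, the test called 6 of 23 epidermal, 6 of 21 erythroid, 3 of 12 neutrophil, 2 of 16 peroxidase and 1 of 17 macrophage genes. It called 0 of 11 metalloproteinase genes and 0 of 18 AP-1, NF-κB and inflammatory signal genes.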

How the results depend on the processing

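Median centring moved no mean of mpx, lyz, mmp9 or mmp13a by more than its SD between replicates, nor did scaling or quantile normalization. Turning the swap columns by their dyes gave −0.064 for mpx, 0.67 for lyz, 0.014 for mmp9 and −0.10 for mmp13a. lyz averaged 1.83 with forward arrays alone and 0.48 with dye swaps alone. Leaving out 1 replicate gave 0.82 to 1.25 for mpx, 0.99 to 1.32 for lyz, 0.60 to 1.24 for mmp9 and 0.51 to 1.84 for mmp13a, as values with no test. The 376 items past the threshold (271 higher, 105 lower) became 1984 (1306 and 678) with swaps turned, 170 (129 and 41) after scaling, and 114 (89 and 25) in the fit with a replicate block, no dye term included. Forward arrays alone gave 617 (470 higher), and dye swaps alone 508 (248 lower). The block with a dye term was not run, since limma gave no estimate of its correlation. With swaps turned, the mean compares forward with swap arrays, so those 1984 items are the same as the orientation differences. Orientation differences, 1984 in all, became 4934 after scaling, 3768 after quantile normalization and 3783 with each probe kept apart. That of mmp9 turned to −0.067 after scaling and −0.07 after quantile normalization, not past the threshold in any. The replicate difference of mpx passed after scaling (1.02) and quantile normalization (0.56), and that of lyz after scaling (1.03). Of the list genes called, with swaps turned mpeg1.1 was at 0.12 (limma adjusted p = 0.349), fosab at 0.11 (0.383) and cdh1 at −0.24 (0.0664), none past the threshold, while slc7a7 at 0.45 still passed (0.00448). Turning the swaps changes the contrast itself. The cause of the other changes was not tested.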
